A study of Mus musculus with 35 samples.

Results

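Interferon-stimulated genes, whose transcription rises when a cell senses interferon, were followed in mouse lung across 2 times of day and 2 treatments aimed at neutrophils. The members were chosen by symbol, from a list of 41 symbols that holds RNA sensors, signalling factors, antiviral effectors, a PARP group, interferon-inducible GTPases and CXCR3 chemokines. Of these, 40 symbols were found, as 41 of the 22211 rows of the expression table, and all 41 rows were among the 16786 genes tested. Gbp6 stands in 2 rows. The row ENSMUSG00000079362 is annotated in GENCODE as Gm43302, a locus that shares exons with Gbp6 and Gbp10, and is called Gm43302 here, and Gbp6 stands for ENSMUSG00000104713. Mx2 was not analysed here.

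RNA of the left lung lobe was measured in 35 male C57BL/6 mice aged 7 to 9 weeks, at ZT4 and ZT16, which are 4 and 16 hours after lights on. Wild-type mice received 3 µg of antibody per g, which was either control IgG or anti-Ly6G (clone 1A8). Ly6G is a protein on the surface of mouse neutrophils. Mice of the genotype MRP8-Cre;iDTR-flox received DT (diphtheria toxin) at 10 ng per g. The MRP8 promoter drives Cre in neutrophils and some other myeloid cells, and Cre allows these cells to make the toxin receptor. All mice were injected under the skin on 2 consecutive days, and the perfused lobe was frozen on day 3. ZT4 mice lived under normal lighting and ZT16 mice in cabinets with an inverted 12 h cycle, so time of day and housing cannot be told apart. Each control or anti-Ly6G group had 7 mice, of which 3 came from July 2017 and 4 from September 2017. DT was given in April 2018 only, to 4 mice taken at ZT4 and 3 taken at ZT16, with no wild-type mice beside them. Toxin, genotype and batch therefore cannot be told apart, and levels of DT mice were not tested against those of other mice. Mice of that genotype without toxin were not analysed here.

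Values are the normalised expression values that the authors deposited, whose read depth is unknown. Their sum per library was between 962649 and 1033550, and 15351 to 15802 genes reached 1. Markers of lung epithelium were high in all 35 libraries: Sftpc, a surfactant protein gene, was between 13800 and 20000, and Ager, a gene of alveolar type 1 cells, between 1410 and 2480. Ly6g itself was between 0.0257 and 0.69 in 34 libraries and at 6.04 in ZT4 control Sep2. The summed level of 19 neutrophil markers at ZT4 was 175 to 1090 in control mice (median 297). In anti-Ly6G mice it was 144 to 273 (median 190), so these ranges overlapped. At ZT16 it was 122 to 220 in control mice (median 186) and 113 to 214 in anti-Ly6G mice (median 151), which overlapped too. In DT mice it was 137 to 169 at ZT4 and 193 to 301 at ZT16. Depletion of neutrophils was not tested with these sums. Libraries are named by batch and table order (Jul3), and these numbers pair nothing between groups. Library Jul3 of the ZT4 anti-Ly6G group stood apart in interferon-stimulated genes, so the main results are given with and without it. Levels were not compared between genes, because the sources used here state no correction for gene length.

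Type I interferons bind the receptor pair IFNAR1 and IFNAR2 and activate the kinases JAK1 and TYK2. Signalling leads to a transcription factor complex that holds STAT2 and IRF9 and binds a DNA element called ISRE. Interferon-gamma, made mainly by natural killer and T cells, acts through the GAS element and is a strong inducer of the guanylate-binding proteins and immunity-related GTPases. In the lung this programme defends against respiratory viruses, and a low level of it is present without infection.

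Promoter sequences came from RefSeq on GRCm38.p6, as windows of 300 bases with 250 before the start of transcription and 50 after it. Of the members, 30 genes had a window. The ISRE core, searched as GAAA, any 2 bases and GAAA again, was looked for on both strands, and overlapping matches were allowed. It was found in 18 of 30 member genes (60%) and in 1079 of 27025 genes of the table (3.99%). All 7 GTPase genes with a window held it, against 6 of 13 antiviral effectors. The GAS core TTCNNNGAA was found in 8 of 30 members (26.7%) and in 9.55% of all genes. The clock-factor E-box CACGTG was found in 1 member, Trim25 (3.33%, against 8.09% of all genes). A match describes letters only and is no measured binding site.

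Shown here are the 170 bases just before the start for some members. They are 3 effector genes called over time (Ifit3, Rsad2 and Oas1a), the ubiquitin-like modifier Isg15, and 2 GTPases. Isg15 and these GTPases were not called in any comparison of all 35 libraries. Each window shown holds an ISRE core, while the windows of the called members Ifit2, Oasl2 and Dtx3l held none. Capitals mark ISRE and GAS cores, and each window reads 5′ to 3′ on the gene's strand.
Ifit3: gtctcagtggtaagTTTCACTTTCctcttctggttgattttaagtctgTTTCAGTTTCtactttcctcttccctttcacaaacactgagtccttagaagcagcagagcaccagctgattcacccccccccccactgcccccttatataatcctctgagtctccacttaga
Rsad2: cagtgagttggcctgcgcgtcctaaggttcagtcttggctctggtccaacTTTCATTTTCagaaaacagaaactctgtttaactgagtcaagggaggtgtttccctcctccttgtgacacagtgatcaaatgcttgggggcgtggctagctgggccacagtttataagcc
Oas1a: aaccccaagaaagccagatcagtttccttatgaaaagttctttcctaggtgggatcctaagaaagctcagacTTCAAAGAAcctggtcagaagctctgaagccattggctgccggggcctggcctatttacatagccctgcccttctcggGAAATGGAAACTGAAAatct
Isg15: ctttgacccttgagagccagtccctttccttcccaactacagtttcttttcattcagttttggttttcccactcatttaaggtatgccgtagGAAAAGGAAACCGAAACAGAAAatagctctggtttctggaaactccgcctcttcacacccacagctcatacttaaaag
Igtp: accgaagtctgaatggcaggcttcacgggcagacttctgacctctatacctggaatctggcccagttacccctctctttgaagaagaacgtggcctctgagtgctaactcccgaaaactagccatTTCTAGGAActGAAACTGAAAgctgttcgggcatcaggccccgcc
Gbp7: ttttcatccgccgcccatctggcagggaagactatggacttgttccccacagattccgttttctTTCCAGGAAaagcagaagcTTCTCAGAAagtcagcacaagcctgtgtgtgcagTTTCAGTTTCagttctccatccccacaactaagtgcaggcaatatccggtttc
These windows were chr19:34583359-34583528 on the plus strand for Ifit3, chr12:26456453-26456622 on the minus strand for Rsad2 and chr5:120907526-120907695 on the minus strand for Oas1a. Isg15 was at chr4:156200819-156200988 on the minus strand, Igtp at chr11:58199386-58199555 on the plus strand and Gbp7 at chr3:142530166-142530335 on the plus strand. Ifit3 held 2 separate ISRE cores, Isg15 a run of 3 overlapping cores and Rsad2 a single core. Oas1a, Igtp and Gbp7 held both kinds, with 1, 1 and 2 GAS cores.

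A single mouse stood far from the rest of its group in these genes. Library Jul3 of the ZT4 anti-Ly6G mice had the highest value of all 35 libraries for 38 of 41 members (92.7%), against 2.85% of all genes tested. Its median fold over the median of the 6 other libraries of its group was 2.32 for the members and 1.01 for all genes. Of the members, 27 (65.9%) were over 2-fold, against 0.995% of all genes. Since this is a single library, these folds are a description with no test.

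The interferon-inducible GTPases led the pattern in Jul3. All 10 rows were over 2-fold, with a median of 6.24 and a range of 4.17 to 46.5. Igtp was at 274 in Jul3 and between 24.9 and 49.8 in the other 6 libraries. Gbp5, a guanylate-binding protein that promotes inflammasome assembly, was at 125 against 13.4 to 31.4. Iigp1, a GTPase of the pathogen vacuole, was at 362 against 41.4 to 71.3. None of these values overlapped the rest of the group. The highest fold, 46.5, belonged to Gm43302, at 82.6 against 1.37 to 4.19, in a row whose sequence lies in other genes.

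The other roles were higher in Jul3 by less. The median fold was 2.26 for the 5 signalling genes, 2.24 for the 16 antiviral effectors, 1.97 for the 3 genes of the PARP group and 1.47 for the 5 sensors. Rsad2 encodes viperin, an enzyme that makes a chain terminator of viral RNA, and was at 19.7 against 2.87 to 8.33. Zbp1, a sensor of Z-form nucleic acid that triggers cell death, was at 45.9 against 3.95 to 22.3. Ddx58, which encodes the RNA sensor RIG-I, was at 82.4 against 55 to 63, a fold of 1.4. Trim25, a ligase that activates RIG-I, was at 131 and was passed by a ZT4 control library at 136. The chemokine gene Cxcl9 was at 1.57 and Oas3 at 11.4, and these were also not the highest of all libraries.

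**Figure D1:**
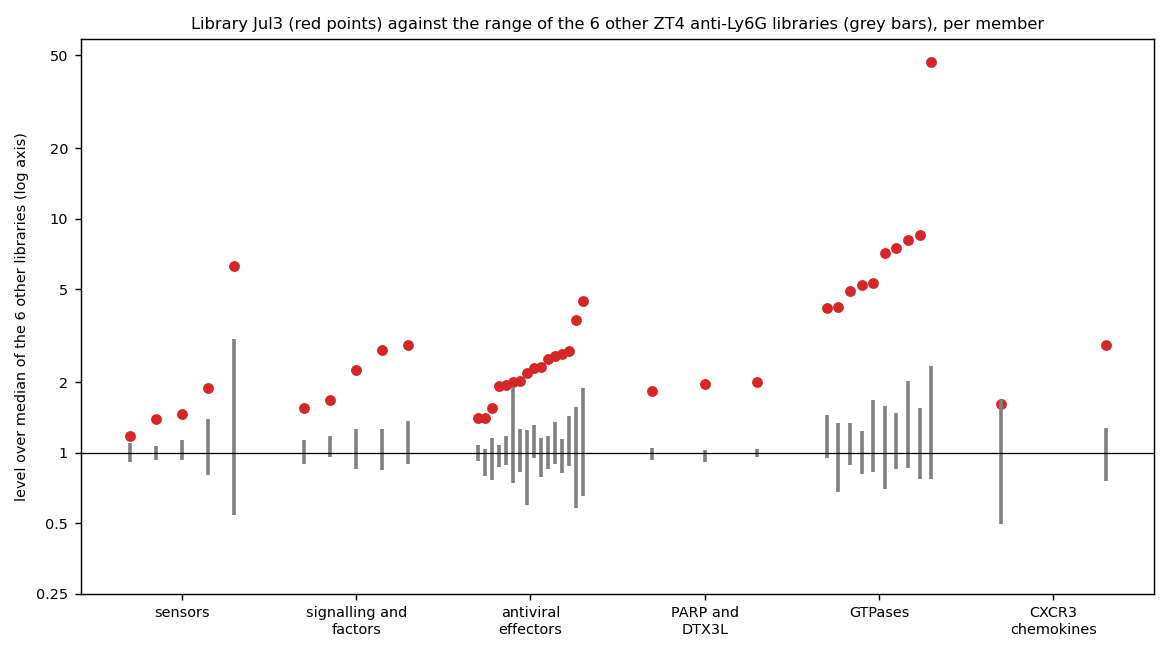
Fold of library Jul3 over the median of the 6 other ZT4 anti-Ly6G libraries for each member (red points, log axis), by role, with the range of those 6 libraries as grey bars. All 10 GTPase points lie between 4.17 and 46.5, while the 5 sensors lie between 1.18 and 6.28.

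Genes outside the list were high in the same library. Among the 15463 genes whose median over all libraries was at least 1, 12 of the 30 of largest fold were members, and without that limit, which was set after the data were seen, 6 of 30 were. Others of the first 30 were Gbp10, Gbp4, Tgtp1, Ido1 and Cd274, which interferon-gamma is known to induce. All 17 genes of MHC class I presentation and the immunoproteasome had their highest value of 35 there, with a median fold of 1.75, and Tap1, the peptide transporter, was at 227. The 9 receptors and kinases had a median fold of 1.01. Ifng, the gene of interferon-gamma, was at 0.343 in Jul3 and between 0.0426 and 0.195 in the 6 other libraries of its group. The highest value of all 35 libraries was 0.479, in ZT4 control Sep3. All values of Ifng were low, and it did not pass the filter on low values. The summed level of 19 natural killer markers was 98.9 in Jul3, in a group range of 54.2 to 105. In every other group this sum was at most 77.8, the highest being in ZT4 DT mice. Of the 17 natural killer markers tested, 5 had their highest value of 35 in Jul3 (29.4%, against 2.85% of all genes). Their median fold was 1.39. For 20 T cell markers the sum was 117, in a group range of 103 to 152. The sum of 12 classical monocyte markers was 1950, the highest of its group, where the lowest was 1610, but under the 2500 of a ZT4 control library. These markers hold Ms4a4c and Ifi204, which are also counted below among other type I interferon-stimulated genes. The sum of 12 dendritic cell markers was 256, the highest of all 35 libraries, where the next group's highest was 253. The sum of 12 alveolar type 2 markers was 24700, the lowest of its group, whose highest was 29600. The lowest library of the ZT4 DT mice and that of the ZT16 DT mice were at 24700 as well. The sum of 19 neutrophil markers was 190, the group's median. None of these markers was at 0, and their part in the difference was not tested.

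In control mice the time comparison asks how these genes differ with the phase of the day, since mice rest at ZT4 and are active at ZT16. Ifit3 rose, and Rsad2 and Oas1a fell. These are 1 of 41 members higher (2.44%, against 4.65% of all genes tested) and 2 lower (4.88%, against 4.38% of all genes). Both shares are near or under the background. Below 0 were 38 of 41 changes (92.7%, against 50.5% of all genes), with a median of -0.24 log2 against 0 for all genes, and July alone gave a median of -0.20 and September alone -0.18. In whole tissue, fewer cells of a type and less RNA per cell cannot be told apart.

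Ifit3 encodes an antiviral tetratricopeptide protein. Its ZT4 control values had a lowest of 49.8, a median of 58.9 and a highest of 73.4. At ZT16 they were 71.6, 84 and 103. The groups overlapped by a single library on each side. The log2 change was 0.56 ± 0.14 (SE, limma adjusted p = 0.00723), with 0.47 in July and 0.62 in September. The call was kept in all 15 fits that each left out a library, with an adjusted p of at most 0.0188.

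Rsad2 was at 2.96, 6.79 and 7.8 at ZT4 (lowest, median, highest) and at 2.14, 3.19 and 4.61 at ZT16. A single ZT4 library, Jul2 at 2.96, lay within the ZT16 range, and the other 6 lay above it. It fell by 0.83 ± 0.27 on the log2 scale (limma adjusted p = 0.0466). Oas1a, a synthetase whose product activates RNase L, was at 8.58, 12 and 13.8 at ZT4 and at 6.51, 6.98 and 9.47 at ZT16. It fell by 0.59 ± 0.17 (limma adjusted p = 0.0229), with -0.36 in July and -0.77 in September. The Rsad2 call was lost in 11 of 15 fits without 1 library, with an adjusted p of at most 0.0956, and kept only without ZT4 control Jul2, ZT16 control Sep1, ZT16 control Sep2 or Jul3 of the anti-Ly6G mice. The Oas1a call was lost only without ZT4 control Sep1 (0.0575).

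The other 38 members were not called in control mice. Library Jul3 is in neither control group and enters only through the shared estimate of spread, so leaving it out moved the p-values and not the changes. It was left out because it stood apart in these same members, so a smaller spread for them follows from that choice. The larger share called lower is therefore no independent support. Without Jul3, 1 member was higher (2.44%, against 4.55% of all genes) and 7 were lower (17.1%, against 4.49% of all genes). These were Rsad2, Oas1a, Rtp4 (-0.42, limma adjusted p = 0.00636), Gbp6 (-0.83, 0.00775), Zbp1 (-0.76, 0.0226), Oas2 (-0.53, 0.0244) and Oasl2 (-0.37, 0.025). Rtp4, a repressor of viral RNA replication, was at 23.5, 30.3 and 38.3 at ZT4 and at 20.8, 22.1 and 24 at ZT16, so that a single ZT4 library lay within the ZT16 range. Among the factors, Stat2 changed by -0.17 ± 0.13 and Irf9 by -0.10 ± 0.09, and neither was called with or without Jul3. The 3 changes above 0 were those of Ifit3, Ifit1 (0.10) and Gbp5 (0.09).

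**Figure D2:**
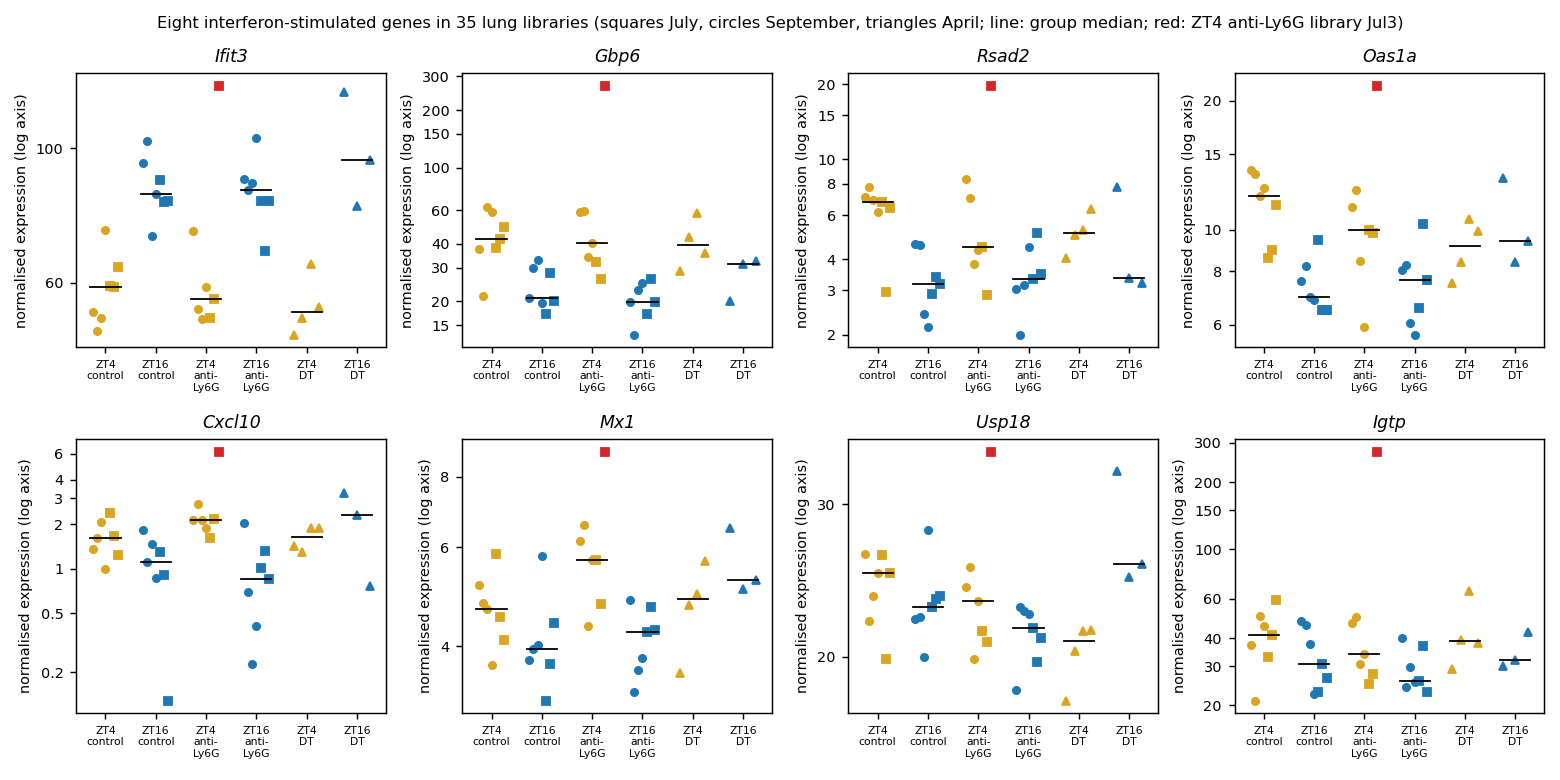
Normalised expression (log axis) of 8 members in each of the 35 libraries, by group, with the group median as a line and Jul3 in red. In Ifit3 the ZT16 libraries lie mostly above the ZT4 libraries in each treatment, in Gbp6, Rsad2 and Oas1a of control and anti-Ly6G mice mostly under them, and Jul3 is the highest point of all 8 panels.

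In anti-Ly6G mice the same comparison asks how time acts when neutrophils are targeted. Ifit3 rose again, and 9 members fell. These are 2.44% higher (against 10.6% of all genes tested) and 22% lower (against 10.4% of all genes). The 9 were Gbp6, Cxcl10, Mx1, Ifit2, Zbp1, Oasl2, Oas1a, Gbp3 and Rsad2. Without Jul3, 4 of them were lower: Gbp6, Cxcl10, Mx1 and Ifit2. That is 9.76%, near the 8.79% of all genes, and Ifit3 alone was higher (2.44%, against 10.1%). The median change of the members moved from -0.34 to -0.13, with 40 and then 35 of 41 below 0, while that of all genes was -0.02 and -0.01.

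Gbp6, a guanylate-binding protein, had the smallest p. Its lowest, median and highest values were 26.2, 40.5 and 268 at ZT4 and 13.4, 19.9 and 26.1 at ZT16. The groups did not overlap, although the nearest libraries were at 26.2 and 26.1. It fell by 1.36 ± 0.31 on the log2 scale (limma adjusted p = 0.00167) and, without Jul3, changed by -0.95 (0.00157). In control mice it was at 21.3, 42.2 and 62.1 at ZT4 and at 17.2, 20.9 and 32.7 at ZT16, where the lowest ZT4 library overlapped. Its 31-base words are shared with Gm43302 by 67.8%, so reads of both rows could be split.

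Cxcl10 encodes a chemokine that draws T and natural killer cells through CXCR3. Its values were low, at 1.62, 2.15 and 6.2 at ZT4 and at 0.227, 0.86 and 2.04 at ZT16. A single ZT16 library, Sep1 at 2.04, lay within the ZT4 range. It fell by 1.16 ± 0.27 (limma adjusted p = 0.00259), and without Jul3 the change was -0.95 (0.0101). Its partner Cxcl9 was between 0.484 and 1.63 at ZT4 and between 0.267 and 1.19 at ZT16, with a change of -0.36 ± 0.24 that was not called.

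Mx1 and Ifit2 are effectors that were lower with and without Jul3. Mx1, a dynamin-like GTPase, was at 4.34, 5.7 and 8.87 at ZT4 and at 3.32, 4.23 and 4.83 at ZT16. Only ZT4 libraries Sep3 (4.34) and Jul2 (4.75) lay within the ZT16 range. It fell by 0.48 ± 0.13 (limma adjusted p = 0.00697), and without Jul3 the change was -0.38 (0.0256). Ifit2, a tetratricopeptide relative of Ifit3, was at 25.8, 32.4 and 45.5 at ZT4 and at 19.5, 26.9 and 32.3 at ZT16, so the groups overlapped. It fell by 0.35 ± 0.095 (limma adjusted p = 0.00829), with -0.68 in July and -0.10 in September, and without Jul3 the change was -0.27 (0.0297). The change of Ifit3 thus went opposite to that of its neighbour on chromosome 19.

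The other 5 of the 9 lost their call without Jul3. Zbp1 was at 3.95, 7.31 and 45.9 at ZT4 and at 4.4, 5.57 and 6.94 at ZT16, with a log2 change of -0.89 that became -0.54 (limma adjusted p = 0.0906). For Gbp3, at 33.4, 39.7 and 186 and then at 26.7, 31.1 and 35.9, the change went from -0.67 to -0.33 (0.0678). Oasl2, a ubiquitin-like relative of the synthetases, was at 44, 50.1 and 127 and then at 37.6, 43.9 and 49.4, and its change went from -0.45 to -0.26 (0.103). All 3 of these genes had ZT4 libraries within the ZT16 range. Oas1a was at 5.93, 9.98 and 21.7 and then at 5.69, 7.64 and 10.3, and its change went from -0.50 to -0.33 (0.116). Rsad2 was at 2.87, 4.49 and 19.7 and then at 2, 3.32 and 5.07, and its change went from -0.73 to -0.44 (0.168). In each of the 5 genes the groups overlapped, and Jul3 was the highest value. ZT4 Sep2 also ended all 5 calls when left out, ZT4 Sep1 those of Zbp1, Oasl2, Oas1a and Rsad2, and ZT16 Sep2 those of Zbp1, Oasl2, Gbp3 and Rsad2. ZT16 Sep4 ended those of Oasl2 and Oas1a, ZT16 Sep3 those of Oas1a and Rsad2, ZT16 Sep1 that of Rsad2, ZT16 Jul1 those of Oas1a, Gbp3 and Rsad2, and ZT16 Jul3 those of Zbp1, Gbp3 and Rsad2.

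Ifit3 moved the other way when Jul3 was left out. It was at 52.3, 56.3 and 127 at ZT4 and at 67.6, 85.2 and 104 at ZT16, and only Jul3 (127) and Sep1 (72.9) of the ZT4 libraries lay above the lowest ZT16 library. The change was 0.39 ± 0.14 (limma adjusted p = 0.0355) with Jul3 and 0.56 (0.000117) without it. Of 14 fits without 1 library, 5 kept the call, namely those without ZT4 Sep1 or Jul3 or without ZT16 Jul1, Jul2 or Jul3, and the highest adjusted p was 0.0842. In the July batch it was 0.09 with Jul3 and 0.50 without. The 10 GTPase rows had a median change of -0.62 with Jul3 and -0.24 without it.

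In DT mice Ifit3 and Usp18 rose, and Ifit2, Dtx3l, Parp14 and Gm43302 fell. That is 4.88% of the members higher (against 5.3% of all genes tested) and 9.76% lower (against 9.98%), so both shares are near the background. Quantile normalisation moved the split of all genes to 7.57% higher and 7.05% lower in this comparison. The changes were split, with 21 of 41 below 0 and a median of -0.07 against -0.01 for all genes. Ifit3 was at 49.2, 52.5, 54.7 and 64.3 at ZT4 and at 80.3, 95.6 and 124 at ZT16. The groups did not overlap. The change was 0.84 ± 0.19 (limma adjusted p = 0.00391), and the call was kept in all 8 fits without 1 library, with a highest adjusted p of 0.043.

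Usp18 encodes a protease that removes ISG15 and dampens receptor signalling. It was at 17.8, 20.3, 21.4 and 21.5 at ZT4 and at 24.7, 25.6 and 32.8 at ZT16, with no overlap. The change was 0.43 ± 0.13 (limma adjusted p = 0.023), and it was not called without ZT4 DT Apr1 or without ZT16 DT Apr1, where it was 0.31 (0.173). In control and anti-Ly6G mice the change of Usp18 was -0.05 and -0.17, and neither was called.

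Among the members that fell in DT mice were an effector and 2 genes of the PARP group. Ifit2 was at 36.5, 34.2, 30 and 31.2 at ZT4 and at 22.3, 21.6 and 25.4 at ZT16, with no overlap, and fell by 0.50 ± 0.14 (limma adjusted p = 0.0111). Dtx3l, a ubiquitin ligase that pairs with PARP9, was at 53.1, 51, 46.2 and 38.5 and then at 29.9, 32.7 and 31.7, and fell by 0.57 ± 0.17 (limma adjusted p = 0.0223). Parp14, a mono-ADP-ribosyl transferase, was at 139, 127, 123 and 108 and then at 91.9, 90.7 and 89.5, and fell by 0.44 ± 0.15 (limma adjusted p = 0.0464). Neither gene's groups overlapped. Parp9, which shares 458 exon bases with Dtx3l, was at 46.8, 46.2, 51.6 and 47.1 and then at 46.7, 42.5 and 44.3, a change of -0.10 that was not called.

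Gm43302 was at 2.39, 9.84, 7.6 and 7.36 at ZT4 and at 0.154, 0.143 and 2.23 at ZT16. The groups did not overlap, but Apr1 of ZT4 and Apr3 of ZT16 were close. It fell by 2.66 ± 0.90 (limma adjusted p = 0.0409), and all of its 31-base words (100%) occur in other genes, 95.7% of them in Gbp6. The row of Gbp6 itself was at 28.8, 43.4, 58 and 35.6 and then at 20, 31.3 and 32.5, a change of -0.55 ± 0.44 that was not called. Of 8 fits without 1 library, Parp14 kept its call only without ZT4 Apr4 or Jul3 (adjusted p at most 0.144), and Gm43302 only without ZT4 Apr1, ZT16 Apr3 or Jul3 (0.149). Dtx3l lost its call without ZT4 Apr1 or Apr2 or without ZT16 Apr1 or Apr3 (0.0832), and Ifit2 without ZT16 Apr2 (0.0563). Without Jul3, which is not a DT library, Ifit1 (0.54, limma adjusted p = 0.0409) and Ddx58 (-0.23, 0.0157) were called as well, which makes 3 higher and 5 lower (7.32% against 5.09%, and 12.2% against 9.95%). As in control mice, these added calls come only through the shared spread, and Jul3 was chosen on these same members.

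Library Apr1 of the ZT16 DT mice had the highest value of its 3 libraries for 25 of 41 members and the lowest for 10. Library Apr3 of the ZT4 DT mice had the highest value of its 4 libraries for 24 of 41 members and the lowest for 1. The share of all genes is not given for these counts, so they are a description only. In ZT16 DT Apr1, Isg15 was at 18.6, against 9.27 and 8.53 in the other libraries of that group. Irf7, the factor that amplifies interferon production, was at 36 against 21.2 and 21.9. This library differed from Jul3 in role. Its mean log2 value over sensors, factors, effectors and the PARP group was 4.88, against 4.46 and 4.58, and its mean over the GTPases was 4.63, the lowest of the 3, against 4.75 and 5.20. In Jul3 the same means were 5.61 and 7.79, each the highest of all 35 libraries.

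**Figure D3:**
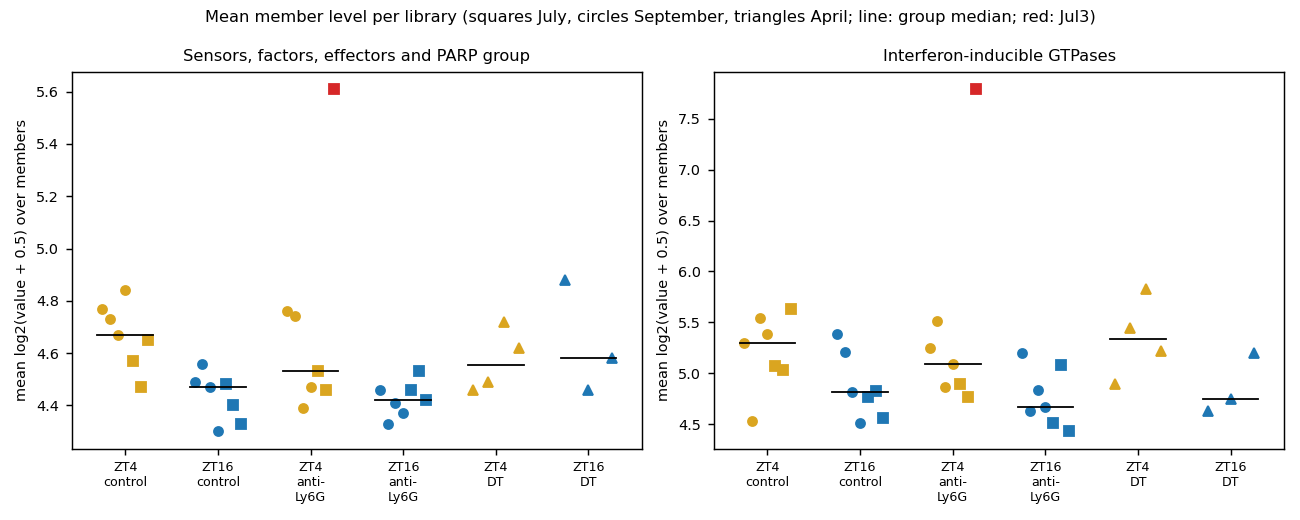
Mean log2(value + 0.5) per library, over sensors, factors, effectors and the PARP group (left) and over the 10 GTPase rows (right), by group, with group medians as lines. Jul3 (red) lies at 5.61 and 7.79, and the highest ZT16 DT library at 4.88 on the left is the lowest of its group on the right, at 4.63.

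Across the 3 treatments Ifit3 was the only member called higher at ZT16 in each. Its close copy Ifit3b shares 61.8% of the 31-base words of Ifit3, so reads could be split between them. Ifit3b changed by 0.47 ± 0.17 in control mice (limma adjusted p = 0.0782), by -0.03 in anti-Ly6G mice (0.922) and by 0.90 ± 0.25 in DT mice (0.0127). Without Jul3 the change of Ifit3b was called in control mice (0.0255) and was 0.15 in anti-Ly6G mice (0.5). Likewise, 68.7% of the words of Oas1a lie in Oas1g, which changed by -0.68 in control mice (0.0602), -0.63 in anti-Ly6G mice (0.0503) and 0.23 in DT mice (0.687). Values of Ifit3 and Oas1a are therefore uncertain between copies, while Rsad2 and Ifit2 share 0.739% and 0% of their words with any other gene.

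**Figure D4:**
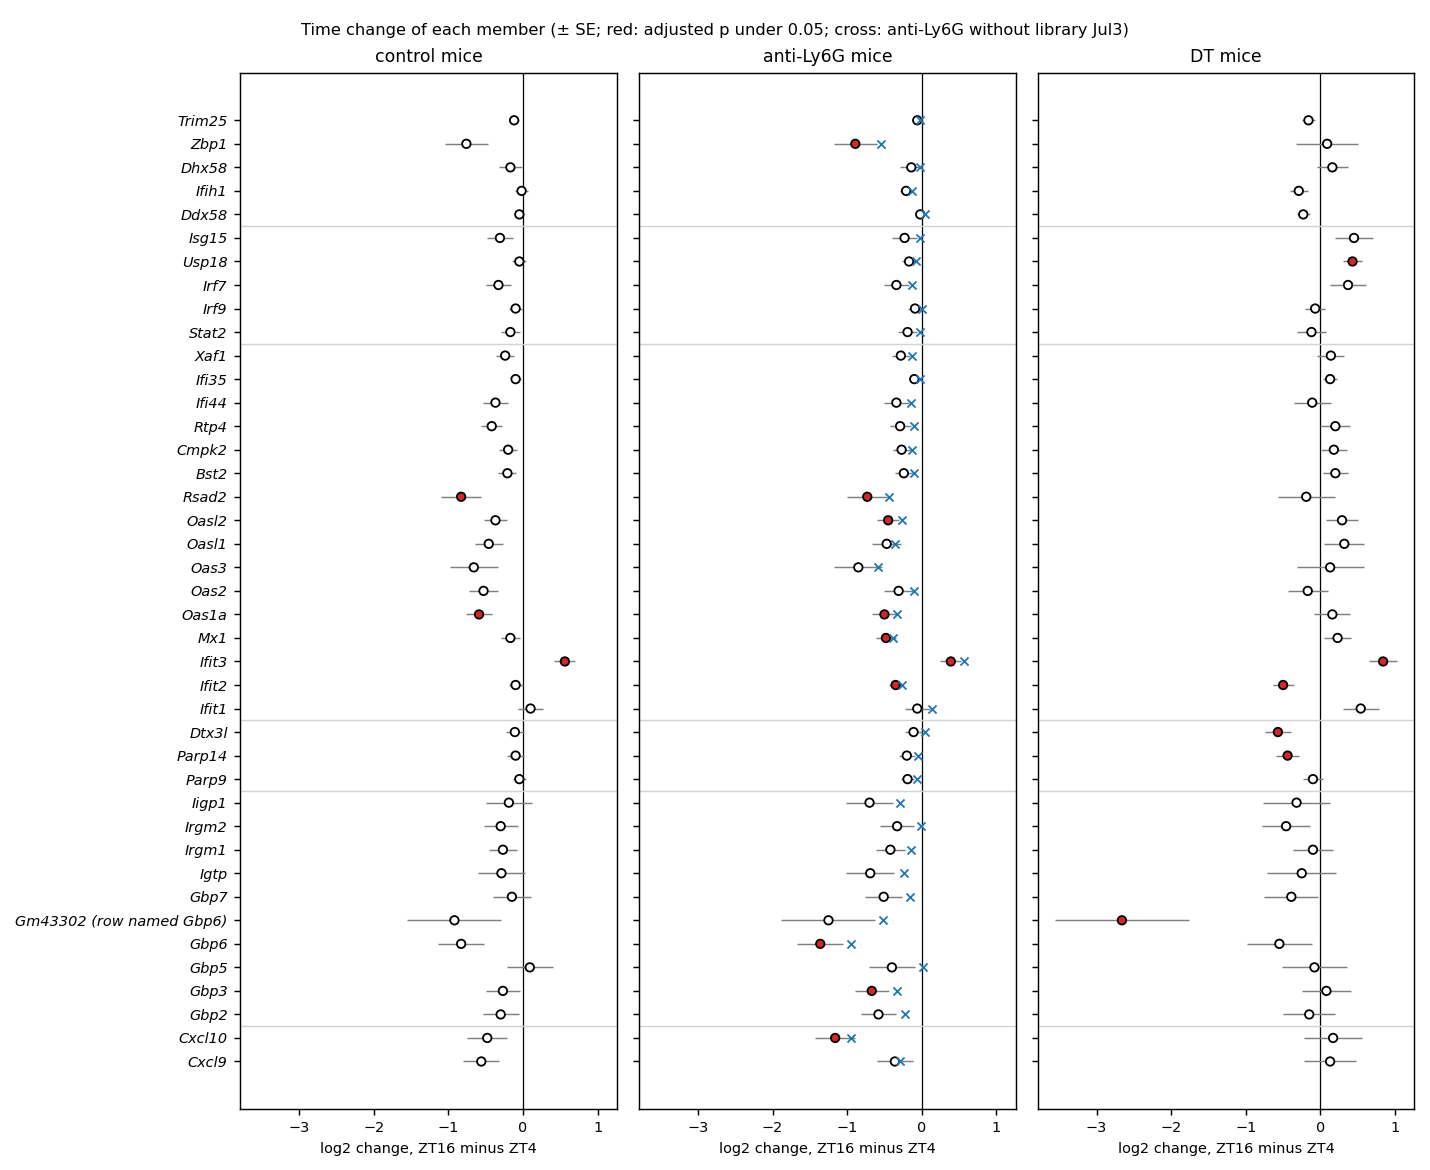
Change from ZT4 to ZT16 (log2 ± SE) of each of the 41 rows in control, anti-Ly6G and DT mice, ordered by role, with called members in red and the anti-Ly6G change without Jul3 as a blue cross. Ifit3 is the member called above 0 in all 3 panels, and most anti-Ly6G crosses lie nearer 0 than their points.

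Anti-Ly6G was then compared with control IgG at each time. No member and none of the 16786 genes was called at ZT4 or ZT16 with limma (0% of all genes). At an unadjusted p under 0.05 there was 1 member of 1185 genes at ZT4, and 0 of 701 at ZT16. The smallest adjusted p of a member was 0.663 at ZT4, for Mx1 (0.31 ± 0.13, 95% interval 0.05 to 0.57), and 0.966 at ZT16. At ZT16 the median change of the members was -0.02, with a range of -0.32 to 0.27.

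At ZT4 the sign of the members' median rested on Jul3. With it, 28 of 41 changes were above 0 with a median of 0.07, and all 10 GTPase rows were above 0 with a median of 0.26. Without it, 33 of 41 were below 0 with a median of -0.11, and 8 of 10 GTPase rows were below 0 with a median of -0.10. In July the members' median was 0.35 with Jul3 and -0.15 without it, and in September, which does not hold this library, it was -0.06. Igtp was at 21, 41.4 and 59.4 in ZT4 control mice and at 24.9, 33.9 and 274 in ZT4 anti-Ly6G mice, where the highest of the other 6 libraries was at 49.8. Stat2 was at 73.7, 78 and 85.8 in control mice and at 57.3, 68.9 and 152 in anti-Ly6G mice.

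The differences between time changes ask whether time acted differently under each treatment. Between anti-Ly6G and control mice no member and no gene was called (0% of all genes), and at an unadjusted p under 0.05 there were 0 members and 1007 genes. For Ifit3 this difference was -0.16 ± 0.19, with a 95% interval of -0.55 to 0.23, and for Gbp6 -0.53 ± 0.43, from -1.42 to 0.36. Between DT and control mice, which differ also in genotype and batch, Usp18 was called with a difference of 0.49 ± 0.16 (limma adjusted p = 0.0388). It was 1 of 41 members higher (2.44%, against 4.93% of all genes) with 0 lower (against 8.86%). The call was lost in 9 of 22 fits without 1 library (adjusted p at most 0.168): ZT4 control Sep1, Jul1 or Jul3, ZT16 control Sep1, Sep2 or Sep3, ZT4 DT Apr1 or Apr2, or ZT16 DT Apr1. Without Jul3 there were 6 higher (Usp18, Oas1a, Oasl2, Rtp4, Isg15 and Irf7) and 2 lower (Dtx3l and Parp14), which is 14.6% against 4.78% and 4.88% against 8.7%. Jul3 is in none of the groups compared here, so the added calls again come only through the shared spread.

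Between DT and anti-Ly6G mice 4 members were called higher (9.76%, against 7.44% of all genes) and 0 lower (against 11.6%). With quantile normalisation the split of all genes was 6.51% higher and 5.86% lower between DT and control mice, and 8.74% and 8.55% between DT and anti-Ly6G mice. The latter comparison shares the DT libraries with the one before, so it is not a separate source of evidence. Usp18 differed by 0.60 ± 0.16 (limma adjusted p = 0.00829), from a change of 0.43 in DT mice and -0.17 in anti-Ly6G mice. Mx1 differed by 0.70 ± 0.22 (0.0239), from 0.23 and -0.48, and Oasl2 by 0.74 ± 0.27 (0.0477), from 0.29 and -0.45. Cxcl10 differed by 1.33 ± 0.48 (0.0477), from 0.17 and -1.16, and lost its call without Jul3 (1.13, 0.074). Of 21 fits without 1 library, Usp18 lost its call in 1, without ZT16 DT Apr1 (adjusted p 0.0539), and Mx1 in 2, without Apr1 of either DT group (at most 0.0903). Oasl2 kept its call only without ZT4 anti-Ly6G Sep3, Sep4, Jul1, Jul2 or Jul3, ZT16 anti-Ly6G Jul1 or Jul2, ZT4 DT Apr3 or ZT16 DT Apr2 (at most 0.168). Cxcl10 kept it only without ZT4 anti-Ly6G Sep4 or Jul1, ZT16 anti-Ly6G Sep1, Jul1 or Jul2, or ZT16 DT Apr3 (at most 0.185). Without Jul3, Dtx3l (-0.61, 0.0047), Ddx58 (-0.28, 0.0141) and Parp14 (-0.39, 0.0143) were called lower, and 3 members higher (7.32%, against 6.93% of all genes, and as many lower against 11.6%).

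Other genes of the interferon system were counted in lists chosen by function. Of all genes tested, 4.38%, 10.4% and 9.98% were lower at ZT16 in control, anti-Ly6G and DT mice. Without Jul3 these shares were 4.49%, 8.79% and 9.95%. Of 9 receptors and kinases, Ifnar2, a chain of the type I receptor, fell at ZT16 in control mice (-0.19, limma adjusted p = 0.0149), anti-Ly6G mice (-0.24, 0.000979) and DT mice (-0.23, 0.0328). In DT mice Jak1 fell too (-0.48, 5.14e-05), and 4 of the 9 were lower in all. Of 14 genes of interferon induction, 2 were lower in control mice and 3 in anti-Ly6G mice (2 without Jul3). Tmem173, which encodes the DNA-sensing adaptor STING, was lower in both (-0.32, 0.022 and -0.40, 0.00163), as was Unc93b1, the escort of endosomal Toll-like receptors (-0.22, 0.0382 and -0.28, 0.00385). In DT mice 0 of the 14 were called, and 2 had an unadjusted p under 0.05. Of 12 interferon genes, 2 were found and 0 passed the filter on low values.

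Of 48 other type I interferon-stimulated genes, 0 were higher and 8 lower in control mice, 2 higher and 24 lower in anti-Ly6G mice, and 1 higher and 4 lower in DT mice. Of all genes, 4.65%, 10.6% and 5.3% were higher in that order, and 4.38%, 10.4% and 9.98% were lower. Without Jul3 the counts of the 48 genes were 1 and 10, 4 and 17, and 1 and 7. The shares of all genes were then 4.55% and 4.49%, 10.1% and 8.79%, and 5.09% and 9.95%. Ifi203, a DNA-binding protein of the AIM2-like family, fell in each treatment (-0.45, -0.81 and -0.72, limma adjusted p = 0.0035, 4.15e-07 and 0.00116). Sp100, a nuclear body protein, fell in control (-0.31, 0.00485) and anti-Ly6G mice (-0.45, 2.2e-05), and in DT mice changed by -0.11 (0.489). Slfn5, a schlafen protein, fell in DT mice (-1.27, 6.65e-06), and in control and anti-Ly6G mice changed by 0.10 and 0.17 without a call.

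Genes of MHC class I and the immunoproteasome were lower in 1 of 17 in control mice, 11 of 17 in anti-Ly6G mice and 2 of 17 in DT mice, and without Jul3 in 5, 7 and 4. For these and the next lists, the shares of all genes lower were 4.38%, 10.4% and 9.98%. Without Jul3 they were 4.49%, 8.79% and 9.95%. Psme1, a subunit of the proteasome activator, fell in control (-0.32, limma adjusted p = 0.00219) and anti-Ly6G mice (-0.24, 0.01). In DT mice the genes that fell were Erap1, a peptide-trimming enzyme (-0.50, 0.00505), and B2m, the light chain of class I molecules (-0.46, 0.0178). Of 17 other interferon-gamma-inducible genes, 2, 7 and 3 were lower in control, anti-Ly6G and DT mice, and without Jul3 4, 5 and 5. Of 14 other response factors, 0, 5 and 3 were lower, and without Jul3 2, 3 and 5. Irf5, a factor of Toll-like receptor signalling, fell in anti-Ly6G mice (-0.48, limma adjusted p = 0.00197). Nos2, the inducible nitric oxide synthase, fell in all 3 (-0.73, -0.96 and -1.30, limma adjusted p = 0.000357, 2.6e-06 and 2.6e-05).

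Some immune cell markers fell over the same interval, in which 4.38%, 10.4% and 9.98% of all genes were lower in control, anti-Ly6G and DT mice. Without Jul3 these shares were 4.49%, 8.79% and 9.95%. The shares of all genes higher were 4.65%, 10.6% and 5.3%, and without Jul3 4.55%, 10.1% and 5.09%. Lower in that order were 5, 9 and 1 of 17 natural killer markers, 6, 9 and 0 of 20 T cell markers and 4, 16 and 1 of 20 B cell markers. Without Jul3 the anti-Ly6G counts were 9, 7 and 15. Of 15 mature neutrophil markers tested, 2 were lower in control mice and 1 in anti-Ly6G mice, also without Jul3. Below 0 were 15 and 12 of their changes (against 50.5% and 53.3% of all genes), with medians of -0.86 and -0.45. In DT mice the sum of 19 neutrophil markers was 137 to 169 at ZT4 and 193 to 301 at ZT16. The summed level of the natural killer markers was 52.3 to 71 at ZT4 and 31.7 to 50.8 at ZT16 in control mice, 54.2 to 105 and 36.9 to 56.8 in anti-Ly6G mice, and 53 to 77.8 and 42.9 to 58.8 in DT mice. Of 12 classical monocyte markers, 1, 7 and 0 were lower, and without Jul3 4, 7 and 1. Ms4a4c and Ifi204 stand in this list and among the 48 other type I interferon-stimulated genes, so these counts are not separate. Of 12 nonclassical monocyte markers, 4, 7 and 4 were lower, and without Jul3 3, 6 and 4. The summed level of these 12 markers went the other way in control and anti-Ly6G mice. It was 940 to 1320 at ZT4 and 1360 to 1620 at ZT16 in control mice. In anti-Ly6G mice it was 994 to 1200 and 1320 to 1790. In DT mice it was 1320 to 1620 and 953 to 1240. Ace was called higher in control (0.47, limma adjusted p = 0.000319) and anti-Ly6G mice (0.67, 5.97e-07). Of 10 markers of plasmacytoid dendritic cells, a main source of type I interferon, 0, 2 and 1 were lower. Of 17 alveolar macrophage markers, 1, 6 and 2 were higher. In DT mice 9 of 14 capillary endothelial and 6 of 12 alveolar type 2 markers were lower, and 7 of 8 markers of club and ciliated cells were higher (6 without Jul3). No marker was at 0 in any library. The part of these cell types in the time changes of the interferon-stimulated genes was not tested.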

How the data were processed

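Lung polyA RNA went through the Ovation Single Cell amplification before Illumina sequencing, per the labels' protocols. Per the submitters' processing notes the tools were kallisto 0.43.1, RSEM 1.2.20, cutadapt and CASAVA 1.8.2, with the build GRCm38, and no role is stated. The values the authors deposited, 1 per gene and library, are normalised signal and not whole numbers. The method of normalisation and any batch adjustment are not given in the sources used here. Read depth is therefore unknown and no counting interval is given.

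The filter asked for a value of 1 in 3 or more libraries, which left 16786 genes and dropped 5425. Group means and a September minus July term were fitted to log2(value + 0.5) in the 35 libraries by limma 3.58.1 with its trend option, in R 4.3.3 (28 residual degrees of freedom, 27 without Jul3). Every adjusted p is from this two-sided test over all genes kept (Benjamini-Hochberg, threshold 0.05, 8 contrasts), and rose, fell and called mean that it passed. On this scale fold changes of low genes are understated. Levels are given as lowest, median and highest value in groups of 7. A library was taken to be 1 mouse, since the design text gives 3 or 4 mice per group. The fit was tested on simulated data.

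The members and all lists were chosen with earlier results of these data known, so a pattern over them is no independent support. All 41 rows are accounted for, and the rule for naming was members called in a comparison, smallest adjusted p first. The text departs from that order to keep related genes together. Members called over time are given with library values. From other lists, genes of smallest p are named, up to 4 per comparison. Shared words of 31 bases were counted in GENCODE M21 transcripts. Alternatives were other pseudocounts, filters and scalings, robust fits, array weights, only the groups compared, no batch term, single batches and each library left out. Leaving out Jul3 from every contrast was added after the data were seen. A gene of the pathway lists is not reported here.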

Additional observations from a re-analysis of the deposited data

Results flagged for a closer look

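In groups of 4 or 7 libraries, 205 combinations of a member and a group were checked for a single library far from the others (Dixon's 95% critical value), which chance alone gives in a small share of groups. In 46 of them a library stood apart, and 35 of these were ZT4 anti-Ly6G Jul3, so they are 1 pattern and not 35. Among the GTPases its values were 362 for Iigp1, 378 for Gbp2, 341 for Gbp7, 286 for Irgm2, 274 for Igtp, 268 for Gbp6, 186 for Gbp3, 148 for Irgm1, 125 for Gbp5 and 82.6 for Gm43302. Among signalling genes and sensors they were 152 for Stat2, 104 for Irf9, 56.5 for Irf7, 34.5 for Usp18, 23.5 for Isg15, 82.4 for Ddx58 and 63.2 for Ifih1. Among effectors they were 139 for Bst2, 127 for Oasl2, 127 for Ifit3, 78.9 for Ifi35, 60.2 for Cmpk2, 57.4 for Rtp4, 53.3 for Xaf1, 45.5 for Ifit2 and 40.8 for Ifit1. Further effectors were at 31.9 for Oas2, 29.5 for Ifi44, 21.7 for Oas1a, 19.7 for Rsad2 and 11.4 for Oas3. The PARP group was at 205 for Parp14, 83 for Parp9 and 75.7 for Dtx3l, and the chemokine gene Cxcl10 at 6.2. Each of these was above the rest of the group.

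The other 11 came from 8 libraries. In control mice Rsad2 was low at 2.96 in ZT4 Jul2 and Oasl2 low at 30.9 in ZT16 Sep4, and 3 values were far from their group: 22.3 for Ifi44 in ZT4 Sep4, 26.9 for Oas2 in ZT4 Sep2 and 32.7 for Ifit1 in ZT16 Sep3. In ZT16 anti-Ly6G mice they were 60.8 for Ifi35 and 85.5 for Bst2 in Jul2 and 88.9 for Gbp7 in Sep1. In ZT4 DT mice library Apr3 was at 51.6 for Parp9, 32.9 for Xaf1 and 34.3 for Gbp5.

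In 5 cases the time change differed between treatments by limma's test of the difference. DT and control mice differed by 0.49 log2 for Usp18. DT and anti-Ly6G mice differed by 0.60 for Usp18, 0.70 for Mx1, 0.74 for Oasl2 and 1.33 for Cxcl10. Toxin, genotype and batch cannot be told apart in these.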

How the results depend on the processing

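Counts of members called are followed by the share of all genes called in the same direction and setting. The signs of the single members called did not change in the alternatives run, but without Jul3 the members' median turned from 0.07 to -0.11 for anti-Ly6G at ZT4 and from -0.08 to 0.10 for the difference in time change between anti-Ly6G and control mice. The change of Ifit3b in anti-Ly6G mice turned from -0.03 to 0.15. Members lower over time in control mice went from 2 to 1 with pseudocount 1 (4.35%), no filter (2.99%), quantile normalisation (4.49%), robust fits (4.26%) or array weights (4.58%). They went to 7 with only the groups compared (3.25%), to 5 in September (1.45%) and to 0 in July (0.822%), where 0 were higher (1.02%). In anti-Ly6G mice the count higher went from 1 to 0 with only the groups compared (9.39%), in July (2.43%) or with robust fits (10.5%). The count lower went from 9 to 5 with only the groups compared (8.71%), to 1 in July (2.32%) and to 2 in September (3.35%). In DT mice the count lower went from 4 to 2 with no filter (6.72%) or robust fits (9.88%). Between DT and control mice, 7 were higher (4.4%) and 1 lower (8.72%) with only the groups compared, and 0 higher with array weights (6.43%). Between DT and anti-Ly6G mice the count higher went from 4 to 2 with no filter (4.79%), equal medians (5.89%), quantile normalisation (8.74%) or only the groups compared (7.27%). Leaving out each library gave 1 to 1 higher and 0 to 7 lower in control mice, 0 to 1 and 4 to 12 in anti-Ly6G mice, and 1 to 3 and 1 to 5 in DT mice. It gave 0 to 6 higher and 0 to 2 lower between DT and control mice, 0 to 5 and 0 to 3 between DT and anti-Ly6G mice, and 0 in the other contrasts. The cause of these shifts was not tested, except that a single batch holds fewer libraries. With only the groups compared, Jul3 is left out of the comparisons of control mice, of DT mice and of DT with control mice. September alone does not hold it either. Those counts are therefore not separate from the fits without Jul3. No paired analysis was possible because the numbers in the table's columns match no title. Read depth is unknown, which limits statements on low genes such as Cxcl10 and Gm43302.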
